A study of Mus musculus with 4 samples.

Results

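The genes that write, copy, remove and read DNA methylation were followed in the open chromatin of mouse CD4+ T cells polarised towards induced regulatory T cells (iTregs) with or without IL-4. The members were Dnmt1, Dnmt3a, Dnmt3b, Uhrf1, Tet1, Tet2, Tet3 and Mbd2. Peaks of the 4 deposited lists were merged where they shared at least 1 base, and a merged region belonged to a gene where it touched the mm10 record of that gene or the 20 kb on either side. This gave 100 regions at the 8 loci, of 93679 regions in the whole series. Of the 100 regions, 16 lay within 1 kb of an annotated start of the gene (promoter), 50 lay elsewhere inside the gene (intragenic) and 34 lay in the flanks, where 9 were within 1 kb of the start of another gene.

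DNA methylation in mammals sits mainly on the cytosine of CpG dinucleotides. DNMT3A and DNMT3B set new methyl groups, and UHRF1 binds CpGs that carry the mark on a single strand after replication and brings in DNMT1, which copies it. TET1, TET2 and TET3 oxidise methylcytosine and so start its removal, and MBD2 binds methylated CpGs as part of a chromatin remodelling and deacetylase complex. In regulatory T cells, loss of methylation at an intronic enhancer of Foxp3 accompanies stable expression of that gene.

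ATAC-seq marks DNA that a transposase can reach. Naive CD4+ T cells, sorted by flow cytometry as CD62L high, CD44 low and CD25 negative from the spleen of male C57BL/6 mice (aged 7 weeks in the labels), were stimulated for 48 h by antibodies to CD3 (anti-CD3, 5 µg/ml) and to CD28 (anti-CD28, 1 µg/ml), and every culture received human TGF-β1 (5 ng/ml) and mouse IL-2 (10 ng/ml). The iTreg+PBS group (2 libraries) had no IL-4, and the iTreg+IL-4 group (2 libraries) had mouse IL-4 at 15 ng/ml. Each library came from a pooled sample of wild-type cells, so p-values measure the spread between such pools, and fewer cells of a type cannot be told apart from less accessibility per cell. The lists held 56645 to 78670 peaks, with the fewest in iTreg+PBS replicate 2. Read numbers are not in the lists, which leaves the sequencing depth unknown, and the absence of a peak says only that no enrichment passed the threshold of the peak caller. The promoters of Cd3e, Cd3g, Cd4, Cd28, Lck and Ptprc had a region in all 4 libraries. Their mean rank, the percentage of peaks of a list with a higher −log10 q-value, ran from 8.87% (Cd28) to 73.0% (Cd4, a weak peak). Those of Cd79a, Lyz2, Csf1r and Ncr1, which mark B, myeloid and NK cells, had none. Cd8b1 (mean rank 35.8%) and Epcam (39.3%), both stronger than Cd4, had a promoter region in 4 libraries, Itgam in 3 and Cd8a in 2. The part of such cells, which the sort for CD4+ T cells would remove, was not tested.

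The sequences of 3 regions with a peak in each iTreg+IL-4 library and no peak in the iTreg+PBS libraries are shown first, since they are where the conditions differ in calls. They are the central 200 bases on mm10, written along the strand of the gene, with capitals for the short motifs searched. The Uhrf1 region (chr17:56333045-56333244, forward strand) lies downstream of Uhrf1, inside the Kdm4b gene. The Tet1 region (chr10:62838078-62838277, reverse strand) spans the end of coding exon 4. The Tet2 region (chr3:133527793-133527992, reverse strand) lies in intron 1.
Uhrf1, called only with IL-4: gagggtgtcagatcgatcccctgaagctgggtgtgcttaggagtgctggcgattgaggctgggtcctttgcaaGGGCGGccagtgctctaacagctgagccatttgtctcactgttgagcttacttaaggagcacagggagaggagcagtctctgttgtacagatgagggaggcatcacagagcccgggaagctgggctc
Tet1, called only with IL-4: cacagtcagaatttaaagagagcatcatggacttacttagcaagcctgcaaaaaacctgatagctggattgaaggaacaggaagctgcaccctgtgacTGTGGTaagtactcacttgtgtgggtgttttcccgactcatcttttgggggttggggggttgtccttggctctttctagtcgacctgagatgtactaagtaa
Tet2, called only with IL-4: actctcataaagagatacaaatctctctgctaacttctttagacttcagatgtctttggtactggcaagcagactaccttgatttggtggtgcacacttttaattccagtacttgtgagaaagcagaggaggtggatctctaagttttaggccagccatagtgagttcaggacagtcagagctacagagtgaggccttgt

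Promoter sequences of 4 members are shown because their CpG content and their rank among peaks are compared. Capitals mark CpG dinucleotides. For Dnmt1 (chr9:20952980-20953179, reverse strand), Uhrf1 (chr17:56303137-56303336, forward strand) and Dnmt3b (chr2:153649211-153649410, forward strand), the 200 bases lie directly upstream of the first start inside the promoter region. For Tet1 (chr10:62886656-62886855, reverse strand) they are the centre of the promoter region.
Dnmt1 promoter: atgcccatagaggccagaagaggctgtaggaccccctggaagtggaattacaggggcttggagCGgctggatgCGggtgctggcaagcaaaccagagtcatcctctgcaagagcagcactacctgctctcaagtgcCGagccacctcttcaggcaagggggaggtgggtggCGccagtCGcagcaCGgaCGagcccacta
Uhrf1 promoter: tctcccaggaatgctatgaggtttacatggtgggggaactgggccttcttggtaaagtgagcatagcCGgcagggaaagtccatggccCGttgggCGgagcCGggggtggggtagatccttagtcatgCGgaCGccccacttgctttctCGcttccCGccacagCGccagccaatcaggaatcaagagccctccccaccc
Dnmt3b promoter: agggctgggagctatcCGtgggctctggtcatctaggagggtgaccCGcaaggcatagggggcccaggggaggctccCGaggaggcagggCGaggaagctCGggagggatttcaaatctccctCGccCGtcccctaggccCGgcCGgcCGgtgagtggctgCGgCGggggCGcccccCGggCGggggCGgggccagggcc
Tet1 promoter: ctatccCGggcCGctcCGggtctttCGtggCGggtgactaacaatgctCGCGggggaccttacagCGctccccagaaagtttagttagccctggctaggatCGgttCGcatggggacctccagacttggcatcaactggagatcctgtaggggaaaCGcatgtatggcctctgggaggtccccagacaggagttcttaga

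All 8 members had a promoter region in all 4 libraries, against 12881 of 21774 coding genes (59.2%). The promoters were ranked within each list by the percentage of peaks with a higher −log10 q-value, so that a low rank is a strong peak. The median over the 12881 coding genes was 10.4%. The promoters of the 8 genes ran from among the strongest peaks of a list (Mbd2 and Dnmt1) to its weaker part (Tet1).

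Among the genes of maintenance methylation, the Dnmt1 promoter region (chr9:20952207-20953380) ranked at 2.84% and 2.39% in iTreg+PBS replicates 1 and 2, and at 2.48% and 3.37% in the iTreg+IL-4 replicates. It covered the starts of the somatic transcripts at 20952979. The upstream start at 20959888 (NM_001199432.1) had no region within 1 kb, although a region shared by all libraries (chr9:20961294-20962212) lay further upstream, at a rank of 20.2% ± 3.90 (SD, n = 4). The Uhrf1 promoter region (chr17:56302975-56304590) covered both curated starts of the gene and ranked at 7.05% and 7.25% without IL-4, and at 7.15% and 6.35% with IL-4. The conditions overlapped for both genes.

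Of the genes for new methylation, Dnmt3a had 7 promoter regions, 6 of them called in all 4 libraries. The best ranked (chr12:3834248-3835351) lay at a predicted start inside the gene, at 10.4% and 16.6% without IL-4, against 9.70% and 15.4% with it. The region over the start of the long form (NM_007872.4, chr12:3806099-3808526) ranked at 15.6% ± 2.90 (SD, n = 4). The start of the short form (NM_153743.4, at 3891744) lay between 2 regions, which ranked at 30.2% ± 3.49 and 51.9% ± 1.85 (SD, n = 4), and neither overlapped with the range of the long-form region. The first of these (chr12:3890816-3891671) was also within 1 kb of the start of Gm31623. A further region near a predicted start, chr12:3825327-3825757, ranked between 90.8% and 98.7% and was missing in iTreg+PBS replicate 2. The remaining shared promoter regions of Dnmt3a ranked at 20.4% ± 2.80 and 37.0% ± 9.08 (SD, n = 4). Dnmt3b had a single promoter region (chr2:153649033-153650299), at 24.4% and 27.9% without IL-4, against 24.8% and 22.2% with it. None of its 3 predicted internal starts, between 153659846 and 153660762, had a region within 1 kb.

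Of the genes for removal, Tet1 (chr10:62886064-62887449) had the weakest of the 8 best-ranked promoter regions. It ranked at 55.2% and 66.1% without IL-4, against 48.1% and 66.3% with it, and 94.5% of the coding genes with a shared promoter region had a better rank. The region depends on the annotation, because with GENCODE basic transcripts in place of RefSeq, a check chosen after seeing the data, Tet1 was the member without a promoter region. The Tet2 promoter region (chr3:133543962-133545463) ranked at 9.87% and 14.1% without IL-4, against 11.0% and 13.7% with it. Tet3 had 3 promoter regions, all called in every library. The upstream one (chr6:83455464-83457292) ranked at 11.4% and 14.2% without IL-4, against 14.5% and 11.8% with it. The region at the start of the shorter transcript (NM_183138.2, chr6:83440557-83442009) ranked at 13.1% ± 3.01 (SD, n = 4), a range that overlapped with the upstream one, and its neighbour chr6:83442644-83442976 ranked at 39.2% ± 16.7 (SD, n = 4). Both were also within 1 kb of the start of B230319C09Rik.

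The Mbd2 promoter region was the strongest of the 8, at 2.27% and 2.13% without IL-4, against 2.12% and 2.19% with it. Its ranks varied least in percentage points, a scale that leaves the strongest peaks little room to vary. It also lay within 1 kb of the start of Gm31671, so the peak cannot be assigned to Mbd2 alone.

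**Figure D1:**
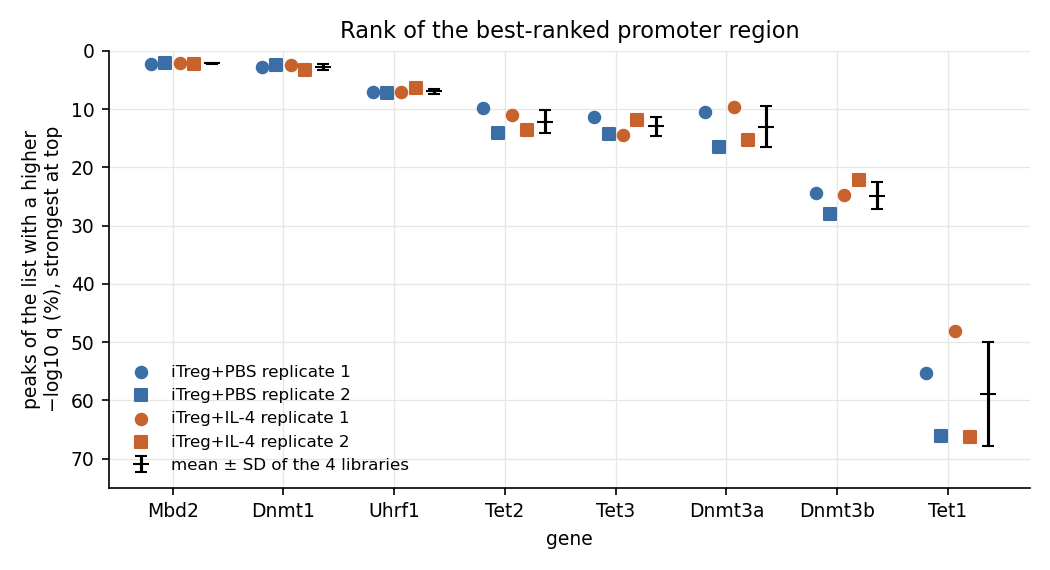
Rank of the best-ranked promoter region of each gene in the 4 libraries. The vertical axis is the percentage of peaks of the list with a higher −log10 q-value (strongest at the top), circles and squares are replicates 1 and 2, blue and orange are iTreg+PBS and iTreg+IL-4, and black bars are the mean ± SD of the 4 libraries. Mbd2 and Dnmt1 lie between 2.12% and 3.37%, Tet1 lies between 48.1% and 66.3%, and the colours overlap within each gene.

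In the order of the plotted ranks, the means over the 4 libraries were 2.18% ± 0.0721 for Mbd2, 2.77% ± 0.447 for Dnmt1, 6.95% ± 0.407 for Uhrf1, 12.2% ± 2.03 for Tet2, 13.0% ± 1.61 for Tet3, 13.0% ± 3.46 for Dnmt3a, 24.9% ± 2.36 for Dnmt3b and 58.9% ± 8.91 for Tet1 (SD, n = 4). The ranges of Tet2, Tet3 and Dnmt3a overlapped, and those of all other neighbours in this order did not. The pattern nearest to that of Dnmt1 over the 4 libraries was that of Mbd2 (mean absolute difference 0.595 percentage points), and Tet2 and Dnmt3a were nearest to each other (1.53).

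CpG content did not follow this order. In the 200 bases around the centre of the region, Dnmt3b held 19.5 CpGs per 100 bases, the highest of the best-ranked promoters, while Mbd2 held 13, Dnmt1 10.5, Uhrf1 7.5 and Tet1 5.5. The values depend on the window: the upstream stretches printed above held 8 CpGs per 100 bases for Dnmt3b, 4.5 for Uhrf1 and 3.5 for Dnmt1, so that Uhrf1 and Dnmt1 changed places. The best-ranked Dnmt3a region held 1.0, while the long-form start held 19.0. The median over the 16 promoter regions was 5.75, against 6.5 over all 20100 promoter regions of the series. The Sp/KLF box GGGCGG, searched on both strands like every motif here, was in 6 of the 16 (37.5%) and in 40.6% of all promoter regions. The E2F core TTCCCGC was in the Uhrf1 promoter region alone among the 16, and in 4.83% of all. A match in these windows is a description and not a site of binding.

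Inside the genes, 26 of 50 intragenic regions were called in all 4 libraries (52.0%), against 43.7% of all intragenic regions, and these 26 ranked at a median of 46.1%. The 43.7% leaves out regions within 1 kb of any gene's start, whereas the 50 include those at the starts of Dnmt3aos and Gm51805. Mbd2 had the most regions per length of locus (1.59 per 10 kb) and Tet1 the fewest (0.651). The best-ranked shared intragenic region of the 8 genes was in Dnmt3a (intron 4, chr12:3870853-3871628), at 10.4%, 11.8%, 12.6% and 13.6% in iTreg+PBS replicates 1 and 2 and iTreg+IL-4 replicates 1 and 2. In Tet2 it was in intron 1 (chr3:133515069-133515774), at 14.3%, 25.1%, 14.1% and 20.4% in the same order of libraries. The range of the Dnmt3a region overlapped with that of the best-ranked Dnmt3a promoter region, and the range of the Tet2 region did not overlap with that of the Tet2 promoter.

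The best intragenic region of Tet3 (intron 3, chr6:83416131-83416718) ranked at 25.3% ± 5.33, that of Mbd2 (intron 2) at 29.8% ± 9.17 and that of Dnmt1 (intron 27, chr9:20916149-20916599) at 47.7% ± 6.41 (SD, n = 4). In Tet1 it was in intron 2 (chr10:62865219-62866081), beside the start of the gene Gm51805, and ranked at 30.3%, 34.7%, 26.5% and 29.2%. This Tet1 region ranked better than the Tet1 promoter in every library. Dnmt3b and Uhrf1 had no intragenic region in all 4 libraries, and the pair of intragenic Dnmt3b regions appeared in a single library, iTreg+IL-4 replicate 1. In the flanks, 23 of 34 regions were shared (67.6%), against 43.9% of all intergenic regions and 51.0% of all regions. These classes are unlike, since the flanks hold 9 regions within 1 kb of another gene's start and others inside other genes. Of all promoter regions 77.3% were shared, and of all intragenic regions 43.7%. The strongest peak near any member was the Kdm4b promoter downstream of Uhrf1 (chr17:56325516-56326327), which ranked at 0.0559% ± 0.0134 (SD, n = 4). Kdm4b encodes a histone demethylase.

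**Figure D2:**
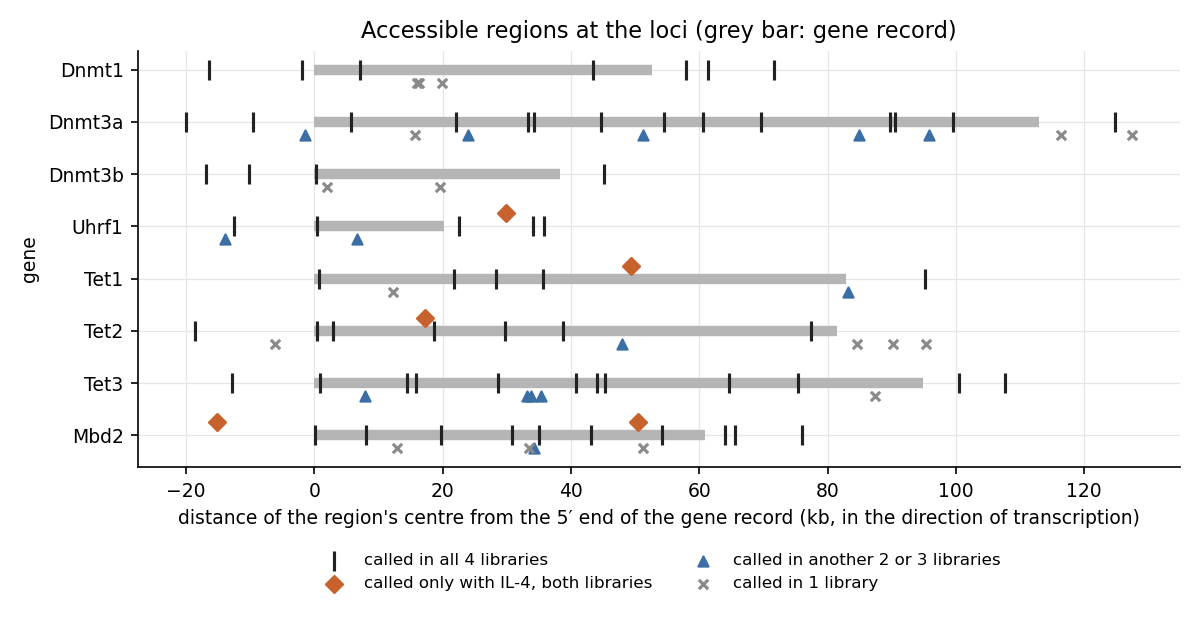
The 100 regions at the 8 loci by distance of their centre from the start of the gene record (kb, in the direction of transcription), with the gene record as a grey bar. Black lines are regions called in all 4 libraries (64), orange diamonds those called only with IL-4 in both libraries (5), blue triangles those in another 2 or 3 libraries and grey crosses those in 1 library (17), and no diamond lies at a promoter.

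Turning to the effect of IL-4, 5 of the 100 regions (5.00%) had a peak in each library with IL-4 and in none without it, against 2.60% of all merged regions. None of the 100 was called in both iTreg+PBS libraries alone, against 0.699% of all. No test was made of these shares, since regions of a library are not replicates. Of the other regions, 64 of 100 were called in all 4 libraries, against 51.0% of all regions, and 17 of 100 in a single library, against 21.6%. A further 7 were called in 3 libraries, 6 in both replicate-1 libraries alone (7.60% of all regions) and 1 in both replicate-2 libraries alone (0.480% of all). iTreg+IL-4 replicate 1, which had the longest list, gave 8 of the 17 regions called once.

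The Tet1 region in exon 4 (chr10:62837916-62838440) was the strongest of the 5, with ranks of 62.5% and 62.4% and −log10 q-values of 14.1 and 14.0 in iTreg+IL-4 replicates 1 and 2. The Tet2 region in intron 1 (chr3:133527737-133528049) ranked at 79.1% and 93.1%, and lay 918 bases from a shared region (chr3:133526270-133526818) at 30.4% ± 9.65 (SD, n = 4). The Uhrf1 flank region (chr17:56333018-56333272) ranked at 94.1% and 93.1%. The Mbd2 regions, upstream of the gene and in intron 5, ranked at 87.5% and 93.8%, and at 94.8% and 98.3%. All 5 regions were thus in the weaker part of both lists, as were 94.8% of the 2437 regions of the series called only with IL-4. When each list was shortened to its 56645 strongest peaks, the Tet1 region alone remained of the 5, and in the upper 50% of each list none did. Without iTreg+PBS replicate 1, iTreg+IL-4 replicate 1 or iTreg+IL-4 replicate 2, the count, which cannot fall when a library is left out, was 11, 9 and 13 regions.

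The sequences printed above for Uhrf1, Tet1 and Tet2 were searched for motifs of T cell factors. IL-4 signals through STAT6, and the STAT palindrome TTCNNNNGAA was in none of the 5 regions, in 13.1% of all regions called only with IL-4 and in 5.84% of all regions. Among the 100 regions it was in 3, all called in all 4 libraries: the shared Tet2 region at chr3:133526270-133526818, a flank region of Dnmt1 at the start of S1pr2, and a flank region of Dnmt3a. The Uhrf1 region held GGGCGG (14.0% of all regions), the Tet1 region the Runx core TGTGGT (21.4%) and an Mbd2 region the ETS core CGGAAG (7.92%). The absence of these letters from a window says nothing about the binding of a factor.

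At the 8 loci, 79 and 68 regions were called in the iTreg+PBS replicates and 90 and 81 in the iTreg+IL-4 replicates. The libraries of the conditions did not overlap, but the difference of 12 regions (73.5 ± 7.78 against 85.5 ± 6.36, SD, n = 2 each) had an exact two-sided permutation p = 0.333, the smallest that 2 against 2 libraries can give. It was 1 with lists of equal length, 4 in the upper 50% of each list and 6.5 without iTreg+PBS replicate 2. Relative to the length of each list, the counts were 1.03 and 1.20 regions per 1000 peaks in the iTreg+PBS replicates, against 1.14 and 1.20 after IL-4, which overlapped (exact permutation p = 1). The bases inside peaks were 51242 and 40369 for iTreg+PBS, against 55006 and 49311 for iTreg+IL-4 (exact permutation p = 0.667). The totals overlapped between the conditions.

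By gene, Tet2 had 8 and 7 regions in the iTreg+PBS replicates, against 12 and 10 in the iTreg+IL-4 replicates, and Mbd2 had 11 and 10 without IL-4, against 13 and 15 with it. In both genes the conditions did not overlap, with a difference of 3.5 regions at the smallest possible p (exact permutation p = 0.333). Among the loci of 18260 coding genes with a region, 7.28% had separate counts with more regions after IL-4 and 1.15% with fewer. Scaled to 1000 peaks of the list, a choice made after seeing the data, Mbd2 overlapped, at 0.143 and 0.177 for iTreg+PBS and at 0.165 and 0.221 for iTreg+IL-4. Tet2 stayed separate, at 0.104 and 0.124 for iTreg+PBS and at 0.153 and 0.148 for iTreg+IL-4. On this scale Uhrf1 was also separate with more regions after IL-4, and Dnmt1 with fewer. Of the coding genes, 10.0% and 16.0% were separate in these directions. The higher Tet2 counts rested largely on flank peaks that the IL-4 replicates did not share. Of the 13 Tet2 regions, 4 had a peak in a single library, always an IL-4 library. Their ranks were 73.6%, 89.3% and 96.5% in replicate 1, and 98.3% in replicate 2. Only 1 Tet2 region, chr3:133527737-133528049 in intron 1, was specific to IL-4 and found by both replicates. Dnmt3a had 19 and 15 without IL-4, against 20 and 16 with it, and Tet3 had 17 and 12 without IL-4, against 16 and 15 with it. Dnmt1, Dnmt3b, Uhrf1 and Tet1 differed by 1.5 regions or less between the condition means. The unscaled counts of these 6 genes overlapped or were equal in part between the conditions.

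Bases inside peaks were separate, with more after IL-4, for Tet1 (4030 and 3894 against 4509 and 4381), Dnmt3b (2965 and 2548 against 3822 and 3058) and Mbd2 (7186 and 5470 against 8083 and 8333), each at the smallest possible p (exact permutation p = 0.333). This held for 19.6% of the coding genes, with 2.32% separate in the other direction. Scaled to the megabases of peaks in each list, also a choice made after seeing the data, Tet1 and Dnmt3b overlapped. On this scale Mbd2, Tet2 and Tet3 had more after IL-4 and Dnmt1 had less, where 13.1% and 13.7% of the coding genes were separate in these directions.

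**Figure D3:**
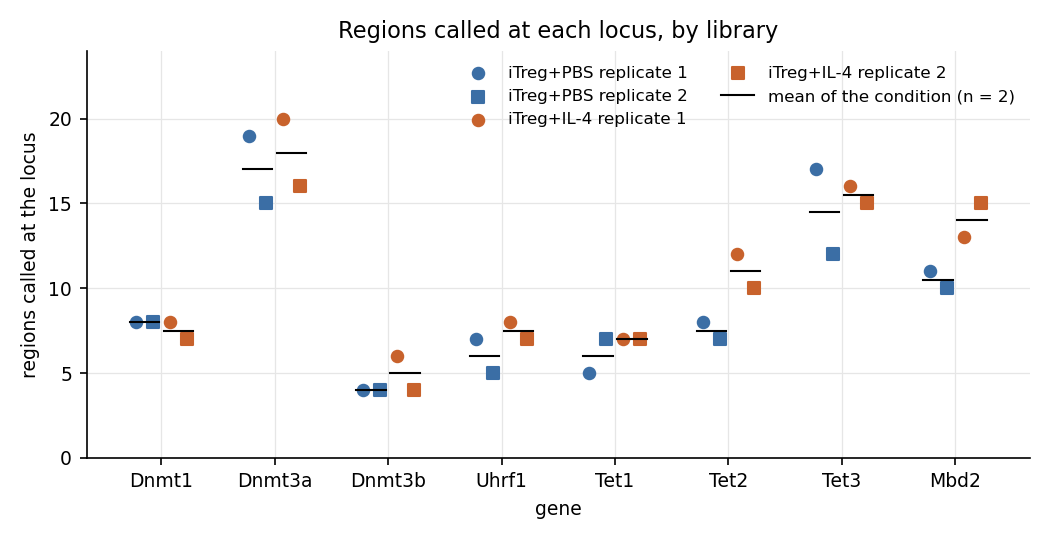
Regions called at each locus in the 4 libraries, with the mean of each condition as a black line (n = 2). Circles and squares are replicates 1 and 2, and blue and orange are iTreg+PBS and iTreg+IL-4. The orange points lie above the blue ones for Tet2 and Mbd2, as they do for 7.28% of the coding genes, and Mbd2 overlaps when the counts are scaled to the length of the lists.

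For the 64 regions called in all 4 libraries, ranks were turned into normal scores and compared by limma over all 47767 shared regions. None of the 64 passed a Benjamini-Hochberg adjusted p of 0.05, and none of all regions did (0%) in the fit without the replicate numbers. With the replicate number as a block, limma called 1046 of all shared regions, with none at the 8 loci. No member region had an unadjusted p below 0.05, against 1125 of all regions (2.36%), and the lowest unadjusted p of limma was 0.0999, for the Mbd2 region in intron 2. This region ranked at 27.7% and 43.2% without IL-4, against 22.9% and 25.4% with it. The best-ranked promoter regions differed between the condition means by 3.49 percentage points or less, and by less than the pooled SD of the libraries for all of them except Dnmt3b, whose ranks overlapped between the conditions. The Tet1 difference of −3.49 rested on single libraries: it was −12.6 without iTreg+IL-4 replicate 2, −8.92 without iTreg+PBS replicate 1, 1.95 without iTreg+PBS replicate 2 and 5.66 without iTreg+IL-4 replicate 1.

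The ranks of the conditions did not overlap, with the stronger rank with IL-4, for 11 of the 64 regions (17.2%, against 19.7% of all shared regions), and with the stronger rank without IL-4 for 3 (4.69%, against 5.18%). The shares of the members were therefore near those of all regions. Because a rank depends on the length of its list, the regions were also ranked among the shared regions alone, a choice made after seeing the data. The counts were then 5 with IL-4 (7.81%, against 14.3%) and 8 without IL-4 (12.5%, against 12.7%). The median difference in rank was −1.60 percentage points for the 64 regions, against −2.05 for all, and it was 0.787 for the 64 when ranked among shared regions. On this scale 3 of the 15 shared promoter regions were separate although their list ranks overlapped. The Tet2 promoter ranked at 15.9% and 16.6% for iTreg+PBS and at 18.1% and 19.4% for iTreg+IL-4. The Dnmt3a region at the long-form start was stronger with IL-4 (23.3% and 23.1%, against 20.9% and 22.5%), and chr12:3890816-3891671 at the short-form start was stronger without it (41.3% and 38.2%, against 47.7% and 47.2%). The other region at the short-form start, chr12:3891829-3892320, was the 1 promoter region with separate list ranks, and these were stronger with IL-4 (52.6% and 54.2%, against 50.0% and 50.9%), but it overlapped among shared regions.

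Of the 11, 3 were the shared intragenic regions of Tet1, which are named here after their values were seen. They ranked at 59.2%, 60.9%, 58.8% and 58.3% (intron 3, chr10:62851630-62852078), and at 45.5%, 47.6%, 39.3% and 39.8% (intron 3, chr10:62858834-62859326), in iTreg+PBS replicates 1 and 2 and iTreg+IL-4 replicates 1 and 2. The intron 2 region is given above. None of these 3 regions kept separate ranks when ranked among shared regions. Of the 11, 3 others did: a flank region of Dnmt1 at the start of Ppan (chr9:20887827-20888640), a flank region of Dnmt3a (chr12:3781059-3781949) and the Mbd2 region in intron 2, at 44.4% and 50.8% for iTreg+PBS and 37.6% and 35.9% for iTreg+IL-4 among shared regions. The 3 regions stronger without IL-4, also named after their values were seen, were 2 introns of Dnmt3a (the intron 4 region above and chr12:3900930-3901190, in intron 16) and a flank region of Tet3 (chr6:83469818-83470264). Ranked among shared regions, both Dnmt3a regions stayed separate and the Tet3 region did not.

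**Figure D4:**
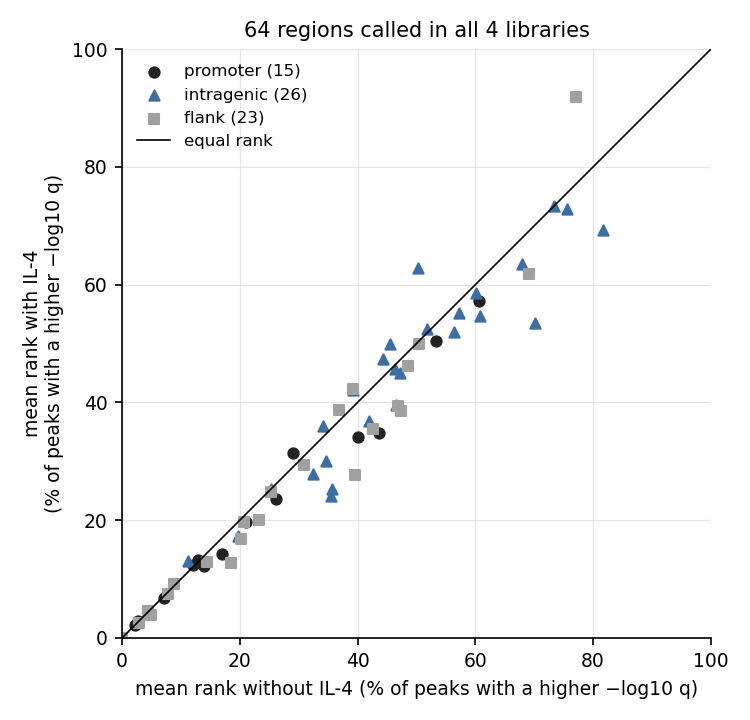
Mean rank of the 64 shared regions without IL-4 (horizontal) and with IL-4 (vertical), as the percentage of peaks with a higher −log10 q-value in the list, n = 2 libraries each. Black circles are the 15 promoter regions, blue triangles the 26 intragenic regions, grey squares the 23 flank regions, and the line marks equal ranks, with a median difference of −1.60 percentage points.

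Other genes of DNA methylation were read in the same way, from a list of 35 genes. A promoter region was in all 4 libraries for 31 of them, in 3 for Cxxc4 and Zfp57, and in none for Dppa3. No promoter was called in a single condition alone, and none of the 31 passed limma (0 of 31, lowest Benjamini-Hochberg adjusted p = 0.99996 by limma). The best ranks of the list had a median of 5.25%, against 12.6% for the 8 members. Mbd3 (0.146%) and Mbd4 (0.755%), the latter the gene of a DNA glycosylase, were among the strongest. Uhrf2 (2.75%), a relative of Uhrf1, and Pcna (2.34%), the replication clamp, ranked with Dnmt1. The glycosylase gene Tdg, which removes the oxidation products of the TET enzymes, ranked at 3.88%, and Dnmt3l, a partner of new methylation without catalytic activity, at 28.0%.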

How the data were processed

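ATAC-seq libraries of iTreg+PBS and iTreg+IL-4 cells (2 each, grouped by the labels) were analysed from peak lists. The submitters' processing notes name Bowtie2 2.2.5, MACS2 2.1.2 and bedtools 2.16.2 and the build mm10. Treatment of the transposase offset and of duplicate reads is not given in the sources used here, and its effect on positions and ranks was not tested. The lists have no column names, and 2 values were deposited for each peak. From their range, the first was taken as the −log10 q-value deposited from MACS2, and the second as the pileup height, a signal deposited in whole numbers.

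Peaks were merged across libraries and ranked within each list in Python 3.11.15 (pandas 2.3.3, numpy 2.4.6, scipy 1.17.1). Gene records and starts came from RefSeq on GRCm38, and sequence was read with pysam 0.24.0. Rank scores of shared regions were compared with limma 3.58.1 in R 4.3.3, with Benjamini-Hochberg adjustment over all shared regions, and counts and bases by exact two-sided permutation. Scripts were tested on simulated lists. Promoter regions, regions called in a single condition and the best shared intragenic region of each gene were named. The members, lists and rules were chosen with earlier results of these data known. Alternatives changed the lists, flanks, promoter window, overlap, rank measure, limma trend, replicate block and libraries. A gene of the list of 35 and a marker gene are not reported here. Motifs were searched in 200 bases around the centre of a region.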

Additional observations from a re-analysis of the deposited data

How the results depend on the processing

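The number of regions called only with IL-4 (5) was 0 in the upper 50% of each list, 1 with lists of equal length, 3 with a flank of 0 kb and 6 with a flank of 50 kb. It was 6 to 13 when a library was left out, a step under which such a count cannot fall. The number called only without IL-4 (0) ran from 0 to 3 when a library was left out (2 without iTreg+PBS replicate 1, 3 without iTreg+PBS replicate 2) and was 0 under the other alternatives. The difference in regions called (12) was 4 in the upper 50%, 1 with lists of equal length and 6.5 to 17.5 without a library. That in bases (6353) ran from 916.5 to 11789.5 without a library. Both kept their direction under all alternatives run. Members with a promoter region in all 4 libraries (8) fell to 7, without Tet1, in the upper 50% and with GENCODE basic transcripts. No member region passed limma with ranks by height, the other flanks, no trend, lists of equal length or the replicate block, and limma was not run on the upper 50%, the reciprocal overlap or GENCODE. Fits without a library leave 1 library in a condition, so their limma calls are not given. When a library was left out, the rank difference of the best promoter turned direction for Dnmt1, Dnmt3a, Uhrf1, Tet1, Tet2, Tet3 and Mbd2, and not for Dnmt3b. Every value stayed within the pooled SD of the reported one, but 2 libraries per condition fix this outcome, so it says nothing on stability.

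Same-numbered libraries deviated together (r = 0.393 over shared regions), but with 2 numbers this is a hint from the data and does not establish pairing. With the replicate block, the differences stayed at 12 regions (11 and 13 within the numbers) and 6353 bases (3764 and 8942 within the numbers), each with an exact sign permutation p = 0.5, the smallest possible. limma with the replicate block called 1046 of all shared regions and 0 of the 64, where the lowest Benjamini-Hochberg adjusted p was 0.257. Depth is unknown, which limits any statement on a missing peak.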
